A study of Mus musculus with 9 samples.

Results

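The genes described here are 10 members of the NF-kB system, chosen by name: the subunits Nfkb1, Nfkb2, Rela and Relb, the inhibitors Nfkbia, Nfkbib and Tnfaip3, and the chemokines Ccl5, Ccl2 and Cxcl1. Of these 10, 7 were found by gene name in the deposited table of 10762 genes. Tnfaip3, Ccl2 and Cxcl1 are not in the table and were not analysed here, so nothing is said of their expression. The cells were B16.SIY, a C57BL/6 mouse melanoma line carrying the model antigen SIY joined to dsRED, grown in culture in DMEM with fetal calf serum. There were 3 groups of 3 libraries: cells with Decr2 shRNA1, cells with Decr2 shRNA2 and cells with a control shRNA. All 3 groups had been infected with lentivirus and selected with puromycin. The labels speak of a stable line for each hairpin and do not say whether a line was a clone or whether the libraries of a group came from separate cultures, and every p-value below therefore speaks of variation among libraries, which may be technical. The enzyme targeted, Decr2, is a peroxisomal reductase that helps degrade unsaturated fatty acids.

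NF-kB transcription factors are dimers of Rel-family proteins that wait in the cytoplasm bound to inhibitors of the IkB family. Signals from receptors for cytokines or microbial products lead a kinase complex to mark IkB for destruction, and the freed dimers enter the nucleus and bind kB sites in DNA. Nfkbia encodes IkB-alpha and is itself a textbook target of NF-kB, which gives the system a negative feedback loop. The same factors drive many chemokine genes, among them Ccl5, which attracts T cells and other leukocytes.

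Of the 7 members, 3 were higher with Decr2 knockdown and 4 did not pass the test. Ccl5 and Nfkbia rose with both hairpins, Ccl5 by 3.80-fold with shRNA1 and 3.50-fold with shRNA2, and Nfkbia by 1.71-fold and 1.72-fold in the same order. Relb rose with shRNA2, by 1.36-fold, and in the average of both hairpins, by 1.32-fold. No member fell. Among all genes tested, 6.92% were called higher with shRNA1, 7.27% with shRNA2, 9.69% in the average of both hairpins and 4.54% with each hairpin separately. The shares called lower were 5.49%, 5.67% and 7.89% for shRNA1, shRNA2 and the average. A gene was called at a Benjamini-Hochberg adjusted p under 0.05 in limma, adjusted over all 10762 genes. The median log2 fold change of the 7 members in the average was 0.11, against -0.001 over all genes. Both hairpins were set against the same 3 control libraries, so the pair of comparisons is not independent.

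**Figure D1:**
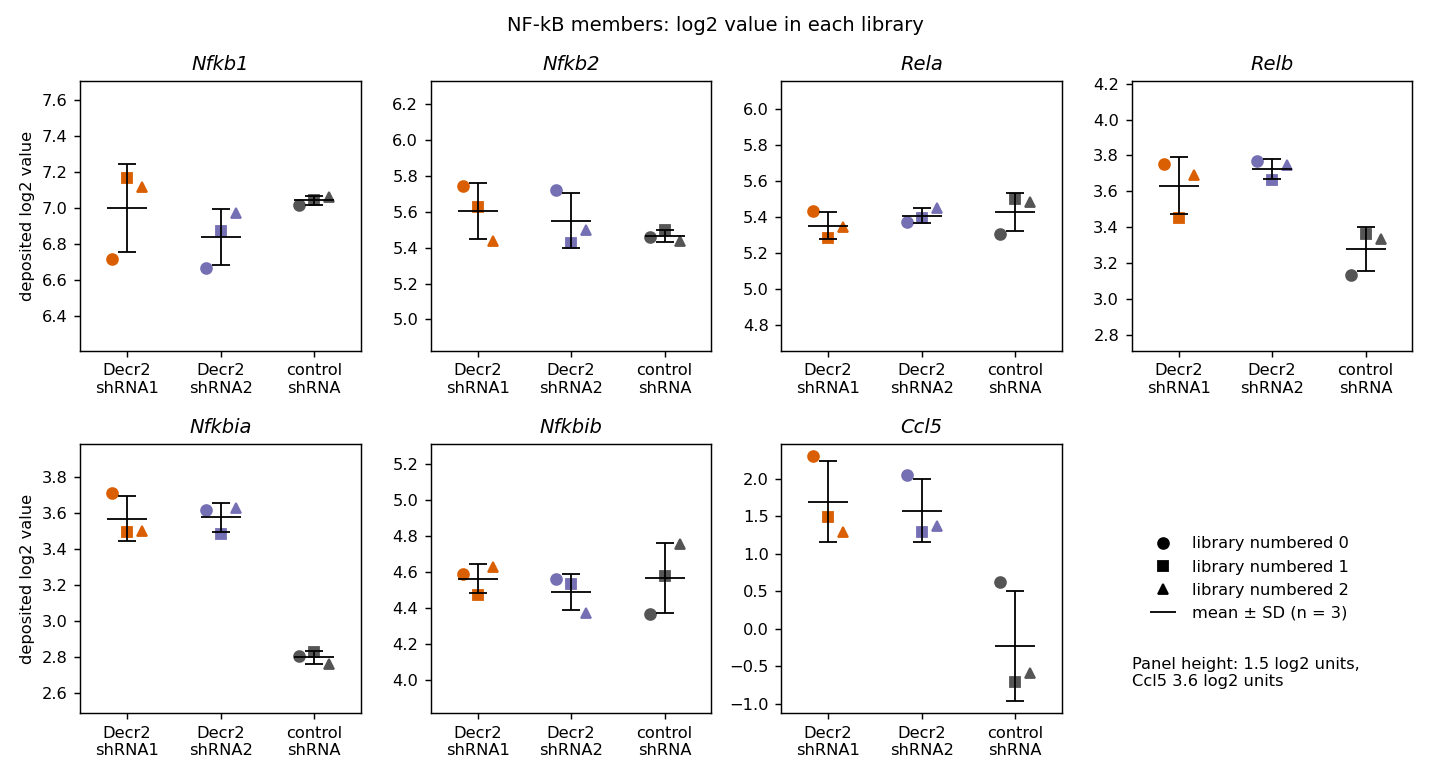
Deposited log2 value (vertical axis) of the 7 NF-kB members in each of the 9 libraries, grouped as Decr2 shRNA1, Decr2 shRNA2 and control shRNA, with horizontal lines for the mean and SD (n = 3) and marker shapes for the library number. For Nfkbia, Ccl5 and Relb all 6 hairpin libraries lie above all 3 control libraries; Nfkb1 with shRNA2 lies below all 3 controls, and Nfkb2, Rela and Nfkbib overlap the controls with both hairpins.

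Facts of the libraries that bear on these values are few. Decr2 itself averaged 2.85 ± 0.34 with shRNA1 and 1.19 ± 0.36 with shRNA2, against 3.92 ± 0.19 with the control hairpin (deposited log2 value, SD, n = 3 each), and fell by 1.07 (adjusted p = 0.0195, limma) with shRNA1 and by 2.73 (adjusted p = 0.000568, limma) with shRNA2. All 10 melanocyte-lineage markers were in the table and none was called in any comparison with control; their summed level ran from 13.7 to 14.2 with shRNA1, from 13.7 to 14.5 with shRNA2 and from 14.1 to 14.3 in controls (log2). Single markers moved within library numbers. S100b was higher than the same-numbered control in all 6 differences (0.74 to 1.89, log2). It was called higher with both hairpins when the library number was a block (adjusted p = 0.000217 with shRNA1 and 0.00144 with shRNA2, limma). In the same fit Sox10 and Mlana were called lower with shRNA2 (adjusted p = 0.0441 and 0.0470, limma), and Sox10 in the average (0.0449). Over all genes, the average with the block called 16.2% higher and 14.1% lower. Without the 3 libraries numbered 0, in the average of both hairpins, 8 of the 10 markers were called lower, from -0.15 for Tyr to -0.75 for Mlana (log2), and S100b was called higher, in a fit that called 20.5% of all genes lower. Of 33 markers of other cell types 4 were measured (Col1a1, Pdgfrb, Postn and Plvap), and of 16 leukocyte markers 0 were. None of the 4 was called in the fit of all 9 libraries without a block. Col1a1, a collagen gene that marks fibroblasts, was higher than the same-numbered control in all 6 differences, by 0.45, 2.36 and 2.30 with shRNA1 and 0.18, 1.55 and 1.88 with shRNA2 (log2). It was called with the block in the average (1.45 ± 0.36, log2, SE, adjusted p = 0.0175, limma), while Pdgfrb and Postn were not. In the fit without the libraries numbered 0, Col1a1 was called higher with both hairpins (2.33 and 1.72, log2, adjusted p = 0.00169 and 0.0062, limma). There Plvap was called higher with shRNA2 only (0.65, adjusted p = 0.0217, limma), and Pdgfrb and Postn were not called. That fit called 17.6% of all genes higher with shRNA1 and 19.2% with shRNA2. The 3 fibroblast markers summed to 4.63 to 4.69 with shRNA1, 4.23 to 4.65 with shRNA2 and 4.25 to 5.07 in controls, and Plvap ran from 1.78 to 2.04, 1.22 to 2.44 and 1.51 to 1.78 in the same order (log2). The part of these markers in the results on NF-kB genes was not tested. Read numbers cannot be recovered from the scaled values, so the depth behind each value is unknown. In bulk RNA, fewer expressing cells and less RNA per cell cannot be told apart.

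The promoter of Nfkbia is shown because Nfkbia was the member whose call held under most alternatives and because RefSeq gives its start. The window covers 250 bases before to 50 bases after the start, chr12:55492598-55492897 on the minus strand (RefSeq, GRCm38.p6), written along the gene. Capitals mark its only match to the kB consensus site, 29 to 20 bases before the start.
Nfkbia promoter: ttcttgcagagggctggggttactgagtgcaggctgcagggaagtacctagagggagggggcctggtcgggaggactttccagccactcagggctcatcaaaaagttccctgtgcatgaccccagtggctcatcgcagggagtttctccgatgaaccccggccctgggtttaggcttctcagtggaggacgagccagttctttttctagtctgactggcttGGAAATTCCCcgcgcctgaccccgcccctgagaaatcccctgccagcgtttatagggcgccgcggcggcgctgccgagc
RefSeq promoters were found for 4 of the 7 measured members, and Nfkb2 and Nfkbia held at least 1 kB match while Rela and Nfkbib held none in these windows. The matches below are printed with their flanking bases, to set the called genes Nfkbia and Bcl3 beside Nfkb2 and Cxcl10, which did not pass.
Nfkbia, at -29 to -20: actggcttGGAAATTCCCcgcgcctg
Bcl3, at 2 to 11: ggcggcagGGGAAGTCCCgctgcccg
Nfkb2, at -39 to -30: atcgtcacGGGAATTCCCcccctcgg
Cxcl10, at -103 to -94: gtttacagGGGACTTCCCtcgggttg
The consensus was searched on both strands, and overlapping matches were counted by position. It occurred in 4.51% of all 32851 RefSeq promoters of this length and in 5.08% of the 11063 promoters of genes in the table. Among NF-kB pathway genes with a RefSeq promoter, a match was present in 4 of 14 genes that were called higher in the average of both hairpins, in 0 of 5 called lower and in 17 of 48 that did not pass. A match is a run of letters and not evidence of binding.

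Of the 4 measured subunits, Relb was the only one called. It encodes the DNA-binding partner of the alternative NF-kB pathway. Its gene lies at chr7:19606217-19629438 on the minus strand (GENCODE M21, GRCm38). Relb had log2 values of 3.75, 3.45 and 3.69 with shRNA1, 3.77, 3.66 and 3.75 with shRNA2, and 3.14, 3.36 and 3.34 with the control hairpin (libraries numbered 0, 1 and 2). All 6 hairpin libraries were above all 3 controls, as were those of 12% of all genes, and the closest pair was shRNA1 library 1 and control library 1. The log2 fold change was 0.45 ± 0.12 (SE) with shRNA2 (adjusted p = 0.038, limma). With shRNA1 it was 0.35 ± 0.12 (SE), which did not pass (adjusted p = 0.0825, limma). In the average of both hairpins it was 0.40 ± 0.10 (SE, adjusted p = 0.0264, limma). In fits without a block for the library number, this call depended on single libraries. With shRNA2 it was lost without control library 0, 1 or 2 (adjusted p = 0.0928, 0.0883 and 0.098, limma), without shRNA1 library 2 (0.0584) and without shRNA2 library 0, 1 or 2 (0.0833, 0.0893 and 0.116). In the average it was lost without control library 0, 1 or 2 (adjusted p = 0.0853, 0.0731 and 0.0813, limma), without shRNA1 library 2 (0.0551) and without shRNA2 library 2 (0.059).

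The other subunits did not pass in any comparison. Nfkb1 encodes the precursor of a DNA-binding subunit that lacks a transactivation domain, and lies at chr3:135584655-135691547 on the minus strand. Nfkb1 had log2 values of 6.72, 7.17 and 7.11 with shRNA1, 6.66, 6.87 and 6.97 with shRNA2, and 7.02, 7.04 and 7.06 with the control hairpin. The controls were close together, whereas 2 hairpin libraries lay above them and 4 below, among these all 3 of shRNA2, and the lowest were the hairpin libraries numbered 0. Its log2 fold change was -0.04 (95% confidence interval -0.32 to 0.24; adjusted p = 0.86, limma) with shRNA1 and -0.20 (-0.48 to 0.08; adjusted p = 0.315) with shRNA2.

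Rela encodes the main transactivating subunit and lies at chr19:5637483-5648130 on the plus strand. Rela had log2 values of 5.43, 5.28 and 5.35 with shRNA1, 5.37, 5.40 and 5.45 with shRNA2, and 5.31, 5.50 and 5.48 with the control hairpin. The groups overlapped, and control library 0 was near the bottom of the range and control library 1 at its top. In the average of both hairpins the log2 fold change was -0.05 (95% confidence interval -0.21 to 0.11; adjusted p = 0.67, limma), an interval that leaves out changes of the size seen for Nfkbia.

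Nfkb2, which encodes the precursor that partners Relb, had log2 values of 5.74, 5.63 and 5.44 with shRNA1, 5.72, 5.43 and 5.50 with shRNA2, and 5.46, 5.50 and 5.44 with the control hairpin. The groups overlapped. Its log2 fold change was 0.14 ± 0.10 (SE, adjusted p = 0.419, limma) with shRNA1 and 0.08 ± 0.10 (SE, adjusted p = 0.643) with shRNA2. Nfkb2 lies at chr19:46304320-46312385 on the plus strand and overlaps Psd on the other strand. The strand setting is not given in the sources used here, and whether exons of Nfkb2 and Psd overlap was not examined. Reads from any shared stretch may not be told apart.

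Of the 2 measured inhibitors, Nfkbia rose and Nfkbib did not pass. Nfkbia, at chr12:55489410-55492647 on the minus strand, had log2 values of 3.71, 3.49 and 3.50 with shRNA1, 3.62, 3.48 and 3.63 with shRNA2, and 2.80, 2.83 and 2.76 with the control hairpin. Every hairpin library was above every control, and within each of the 3 groups the values lay close together. The log2 fold change was 0.77 ± 0.11 (SE, adjusted p = 0.00456, limma) with shRNA1 and 0.78 ± 0.11 (SE, adjusted p = 0.00419) with shRNA2. As a fold this was 1.71 (95% confidence interval 1.44 to 2.02) and 1.72 (1.45 to 2.03). With any single library left out, Nfkbia remained called with both hairpins, and its highest adjusted p was 0.0272 (limma).

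Nfkbib encodes IkB-beta, a second inhibitor of the same family, and lies at chr7:28758251-28767512 on the minus strand, overlapping Sirt2 on the other strand. Nfkbib had log2 values of 4.59, 4.47 and 4.63 with shRNA1, 4.56, 4.53 and 4.37 with shRNA2, and 4.36, 4.58 and 4.75 with the control hairpin. The controls spanned the lowest and the highest of the 9 values. In the average of both hairpins the adjusted p was 0.808 (limma), and with shRNA1 the log2 fold change lay between -0.26 and 0.25 (95% confidence interval), below the 0.77 of Nfkbia. Whether exons of Nfkbib and Sirt2 overlap was not examined either, and reads from any shared stretch may not be told apart.

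Ccl5 was the only measured chemokine among the members. It lies at chr11:83525778-83530518 on the minus strand. Ccl5 had log2 values of 2.31, 1.49 and 1.29 with shRNA1, 2.06, 1.30 and 1.37 with shRNA2, and 0.62, -0.72 and -0.60 with the control hairpin. All 6 hairpin libraries were above all 3 controls, and in each group library 0 was the highest. The log2 fold change was 1.93 ± 0.43 (SE, adjusted p = 0.0223, limma) with shRNA1 and 1.81 ± 0.43 (SE, adjusted p = 0.0276) with shRNA2. As a fold this was 3.80 (95% confidence interval 1.95 to 7.43) and 3.50 (1.79 to 6.83). The deposited level of Ccl5 was low, at the 1.32 percentile of genes by mean value; whether the deposited values are scaled by transcript length is not stated. In fits without a block for the library number, the call depended on single libraries. With shRNA1 it was lost without control library 1 or 2 (adjusted p = 0.0911 and 0.0887, limma), without shRNA1 library 1 (just above the threshold) and when the shRNA2 libraries were left out of the fit (0.0562). With shRNA2 it was lost without control library 1 or 2 (adjusted p = 0.104 and 0.102, limma) and without shRNA2 library 0, 1 or 2 (0.0749, 0.0677 and 0.0703). In the average of both hairpins it was lost without control library 1 or 2 (adjusted p = 0.0615 and 0.0589, limma).

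**Figure D2:**
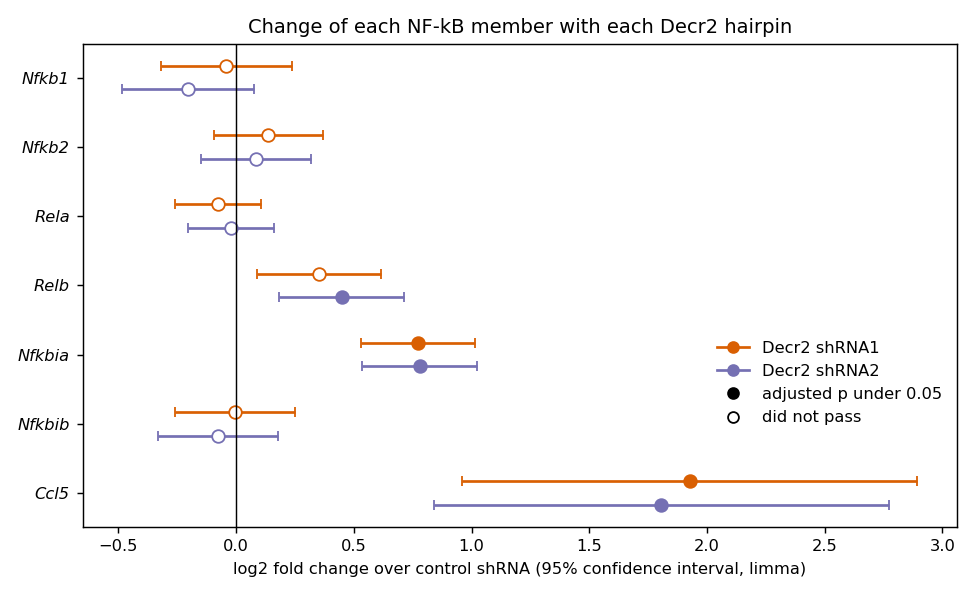
Log2 fold change over control shRNA (horizontal axis) of each NF-kB member with Decr2 shRNA1 and Decr2 shRNA2, with 95% confidence intervals from limma and filled points where the adjusted p was under 0.05. The intervals of Nfkbia (0.53 to 1.02 and 0.54 to 1.02) are much narrower than those of Ccl5 (0.96 to 2.89 and 0.84 to 2.77).

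**Figure D3:**
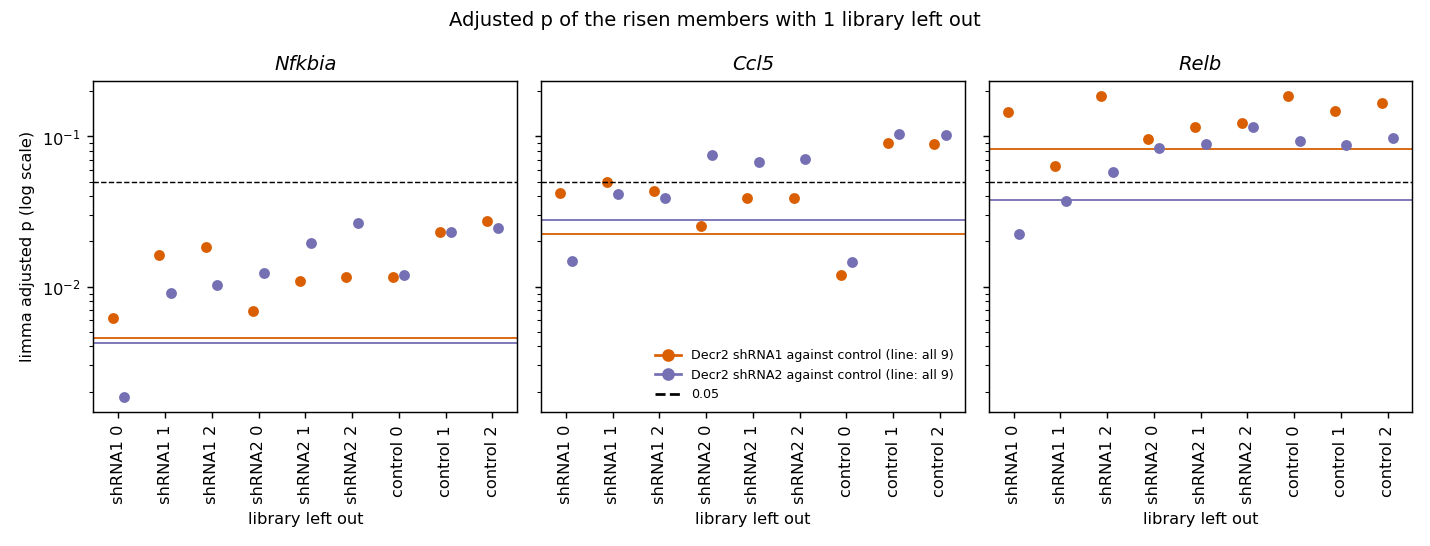
Adjusted p from limma (vertical axis, log scale) of Nfkbia, Ccl5 and Relb for each hairpin against control after leaving out 1 library at a time, with solid lines for the fit of all 9 libraries and a dashed line at 0.05. All points of Nfkbia stay below 0.05. Ccl5 crosses it with both hairpins without control library 1 or 2. It also does so with shRNA1 without shRNA1 library 1, and with shRNA2 without any 1 of the 3 shRNA2 libraries. Relb with shRNA2 crosses it without any 1 of the 3 control or 3 shRNA2 libraries and without shRNA1 library 2. Relb with shRNA1 lies above it throughout. These fits had no block for the library number.

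A filter on low values bears on the called members. Relb, Nfkbia and Ccl5 all lay among the lowest 25% of the table by mean value, at the 17.9, 15.2 and 1.32 percentiles, whereas Nfkb1 lay at the 83.1 percentile; these are ranks of deposited values, whose scaling by length is unknown. Genes among this lowest 25% were called higher in 15.4% of cases in the average of both hairpins, against 7.78% of the other genes. With the lowest 25% of genes removed, 4 members were tested and 0 were called, since the 3 called members were not among the genes tested.

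The library numbers 0, 1 and 2 carried variation of their own. Libraries numbered 0 were set against those numbered 1 and 2 with the group as a term, a comparison added after the values were seen. In it 23.6% of all genes were called (limma, adjusted p under 0.05), and of the members Ccl5 was, with a log2 difference of 0.97 ± 0.21 (SE, adjusted p = 0.0138). Nfkb1 was lower by a log2 difference of -0.24 ± 0.08 (SE) and did not pass (adjusted p = 0.0508). Within each library number, Ccl5 was higher than the control by 1.69, 2.21 and 1.88 with shRNA1 and by 1.44, 2.01 and 1.97 with shRNA2 (log2). Nfkbia was higher by 0.91, 0.66 and 0.74 with shRNA1 and by 0.81, 0.65 and 0.87 with shRNA2. Relb was higher by 0.62, 0.09 and 0.35 with shRNA1 and by 0.63, 0.30 and 0.41 with shRNA2. The 6 within-number differences were above 0 for each of these 3 genes, and for Relb they were largest among the libraries numbered 0. For these 3 genes that sign follows from all 6 hairpin libraries lying above all 3 controls, as they did for 12% of all genes. The share of all genes with all 6 within-number differences above 0 was not counted.

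With the library number as a block, the same members were called: Ccl5 with shRNA1 and shRNA2 (adjusted p = 0.00156 and 0.00202, limma), Nfkbia (0.00234 and 0.00247) and Relb with shRNA2 (0.0274). Relb with shRNA1 again did not pass (adjusted p = 0.0608, limma with the block). In this fit 13.4% of all genes were called higher with shRNA1 and 13.4% with shRNA2. Without the 3 libraries numbered 0, the log2 fold changes were 2.05 and 1.99 for Ccl5, 0.70 and 0.76 for Nfkbia, and 0.22 and 0.36 for Relb, for shRNA1 and shRNA2 in that order. Relb with shRNA1 did not pass there either (adjusted p = 0.174, limma), and 17.6% and 19.2% of all genes were called higher.

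**Figure D4:**
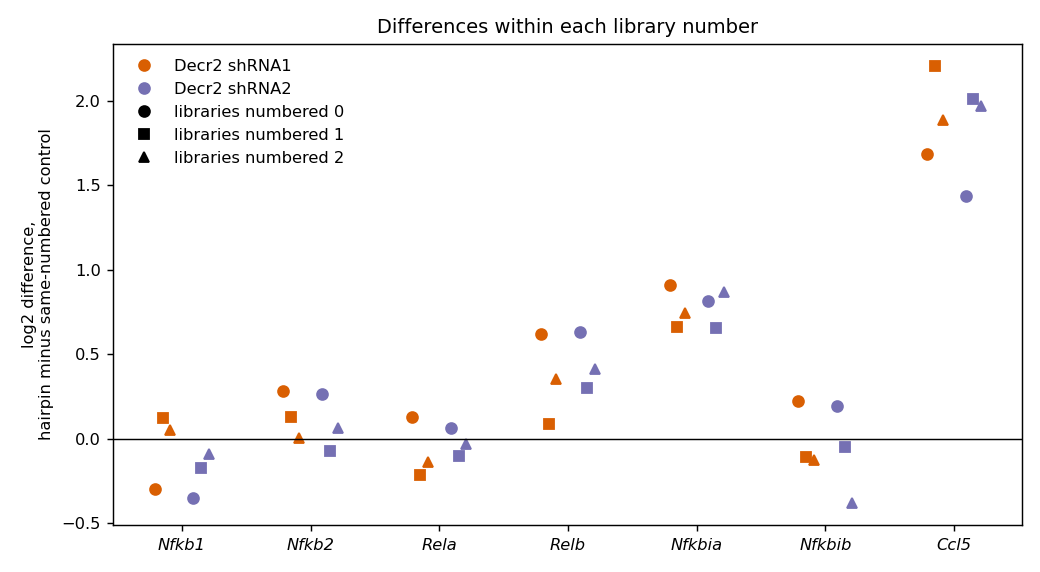
Log2 difference between each hairpin library and the control library of the same number (vertical axis) for the 7 NF-kB members, coloured by hairpin and shaped by library number. Ccl5, Nfkbia and Relb lie above 0 in all 6 differences, and Rela and Nfkbib lie above 0 only among the libraries numbered 0.

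The hairpins were also compared with each other. Between shRNA2 and shRNA1, 0 of 7 members were called (limma) and 0 had an unadjusted p under 0.05, against 0.455% of all genes called. The difference of shRNA2 minus shRNA1 was 0.01 for Nfkbia (95% confidence interval -0.24 to 0.25), 0.09 for Relb (-0.17 to 0.36) and -0.12 for Ccl5 (-1.09 to 0.84). The interval of Ccl5 is wide, so a difference of up to about 1 log2 unit is within it. Of the 87 measured genes of the pathway lists described next, 0 were called between hairpins, but 10 had an unadjusted p under 0.05 (limma). These were Irak4, Ngfr, Lif, Csf1, Otud7b, Map3k3, Cxcl10, Ltbr, Hif1a and Tnfrsf1a. The share of all genes with such an unadjusted p was not counted.

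The wider pathway was read from 6 lists of 139 genes, of which 87 were in the table. In the average of both hairpins 17 of the 87 rose, 6 fell and 64 did not pass, against 9.69% of all genes called higher and 7.89% called lower; without the members, 14 of 80 rose and 6 fell. The median log2 fold change of the 87 genes was 0.08. Without control library 1 or 2, 7 of the 87 genes were called higher and 1 lower, and over all genes the share called higher was then 3.5% and 3.66% and the share called lower 2.22% and 2.2%, so the counts fell across the table. Of these 23 called genes, 8 kept their call with each single library left out: Nfkbia, Bcl3, Irak4, Ltbr, Ccnd1, Vegfa, Tnfaip2 and Gadd45b. The calls of the other 15 were each lost without control library 1 and also without control library 2. Without control library 0 the calls of Relb, Otulin, Ripk1, Ube2n, Ngfr, Tlr4 and Ccl28 were lost as well, and leaving out single hairpin libraries ended those of Relb, Otulin, Ube2n, Ngfr, Tlr4, Ccl28, Irf1 and Tapbp.

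Among 18 measured inhibitors and negative regulators, 4 rose and 1 fell in the average of both hairpins, and without control library 1 or 2 the number called was 2. Bcl3, an atypical IkB protein of the nucleus, had log2 values of 2.12 to 2.17 with shRNA1, 1.99 to 2.23 with shRNA2, and 0.99, 0.27 and -0.19 with the control hairpin. The groups did not overlap, and the controls spread more than the hairpin libraries. Bcl3 rose by 1.75 ± 0.24 (log2, SE, adjusted p = 0.00286, limma). Tnip2, which binds the ubiquitin-editing inhibitor of the pathway, rose by 0.68 ± 0.14 (adjusted p = 0.0108) and Nkiras2, a Ras-like protein that binds IkB, by 0.40 ± 0.08 (adjusted p = 0.00983). Otulin, which removes linear ubiquitin chains, fell by 0.22 ± 0.07 (adjusted p = 0.0467, limma). Nfkbia, Bcl3 and Tnip2 were called higher with each hairpin, Nkiras2 with shRNA2 only, and Otulin was called with neither hairpin. Among 5 measured subunits, Relb was the only gene called, and Rel had a log2 fold change of 0.01 (adjusted p = 0.973).

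Among 30 measured kinases and adaptors upstream of NF-kB, Ikbke was called higher and Ripk1 lower with shRNA1, and Irak4 and Ikbke higher with shRNA2. In the average of both hairpins 2 rose, 2 fell and 26 did not pass. Irak4, a kinase of the interleukin and Toll-like receptor pathway, rose by 0.53 ± 0.10 (log2, SE, adjusted p = 0.00779, limma), and Ikbke, an IkB kinase relative, by 0.79 ± 0.18 (adjusted p = 0.0183). Ripk1, a kinase at the TNF receptor, fell by 0.33 ± 0.08 (adjusted p = 0.0224) and Ube2n, a ubiquitin-conjugating enzyme, by 0.21 ± 0.05 (adjusted p = 0.0265). The core kinase subunits were not called, with log2 fold changes of 0.06 for Ikbkb, 0.18 for Chuk and 0.18 for Ikbkg (adjusted p = 0.664, 0.192 and 0.0541, limma). With the library number as a block Ikbkg was called (adjusted p = 0.0388, limma). Without the libraries numbered 0 so were Chuk (0.28, adjusted p = 0.00359) and Ikbkg (0.21, adjusted p = 0.0147), in a fit that called 20.9% of all genes higher. The count for this list was 8 with the block, 5 higher and 3 lower, in a fit that called 16.2% of all genes higher and 14.1% lower. Irak4 did not pass when the 6 hairpin libraries were fitted as 1 group (adjusted p = 0.0595, limma).

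Among 9 measured receptors, 0 were called with shRNA2, and with shRNA1 Ltbr and Tnfrsf1a were called higher and Ngfr lower. In the average of both hairpins 3 rose and 1 fell, and Tlr4 was called only there. Ltbr, the lymphotoxin beta receptor, rose by 0.43 ± 0.08 (log2, SE, adjusted p = 0.00728, limma), Tnfrsf1a, a TNF receptor, by 0.35 ± 0.07 (adjusted p = 0.00942), and Tlr4, which senses bacterial lipopolysaccharide, by 0.25 ± 0.07 (adjusted p = 0.0464). Ngfr, the low-affinity neurotrophin receptor, fell by 0.68 ± 0.19 in the average (adjusted p = 0.0349). Its log2 fold change was -1.09 with shRNA1 (adjusted p = 0.0146) and -0.27 with shRNA2 (adjusted p = 0.443), a difference between hairpins that did not pass (adjusted p = 0.191).

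Of 31 listed chemokines and chemokine receptors 6 were measured, and 2 of them rose in the average of both hairpins. Beside Ccl5 this was Ccl28, a mucosal chemokine, by 1.08 ± 0.26 (log2, SE, adjusted p = 0.0232, limma). Ccl28 was called with shRNA2 but not with shRNA1. Its deposited level was low, at the 0.455 percentile of genes by mean value. Neither Ccl5 nor Ccl28 was called in the average without control library 1 or 2. Cxcl10, an interferon-induced chemokine, had a log2 fold change of -0.18 (adjusted p = 0.44), and Cx3cl1 and Ccl25 did not pass either (-0.43 and 0.02). Ccl27a had a log2 fold change of 0.62 (adjusted p = 0.126), and its near-identical gene copies make that value uncertain.

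Among 24 measured targets of NF-kB other than chemokines, 7 rose in the average of both hairpins, Relb and Nfkbia among them, and 2 fell. Vegfa, an angiogenic growth factor, rose by 0.84 ± 0.12 (log2, SE, adjusted p = 0.00327, limma), Gadd45b, a stress-response gene, by 0.73 ± 0.11 (adjusted p = 0.00447), Tnfaip2, a TNF-induced gene, by 0.70 ± 0.11 (adjusted p = 0.004), and Irf1, an interferon regulatory factor, by 0.31 ± 0.09 (adjusted p = 0.0366). Tapbp, the antigen-loading chaperone tapasin, was named after its value was seen and rose by 0.67 (adjusted p = 0.0494, limma). This call was also lost with libraries centred on their medians (adjusted p = 0.0532, limma) and with the lowest 25% of genes removed (0.0512). The same held with a pseudocount of 1 (0.0509) and without the trend (0.0597). Ccnd1, cyclin D1, fell by 0.71 ± 0.08 (adjusted p = 0.00123), and Lif, a cytokine of the interleukin-6 family, fell by 1.41 ± 0.30 (adjusted p = 0.0141). The list thus held called genes of both signs in the average, and 15 of its 24 genes did not pass there. Vegfa, Gadd45b, Tnfaip2 and Ccnd1 were called with each hairpin, Lif with shRNA2 only, and Irf1 and Tapbp with neither hairpin.

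**Figure D5:**
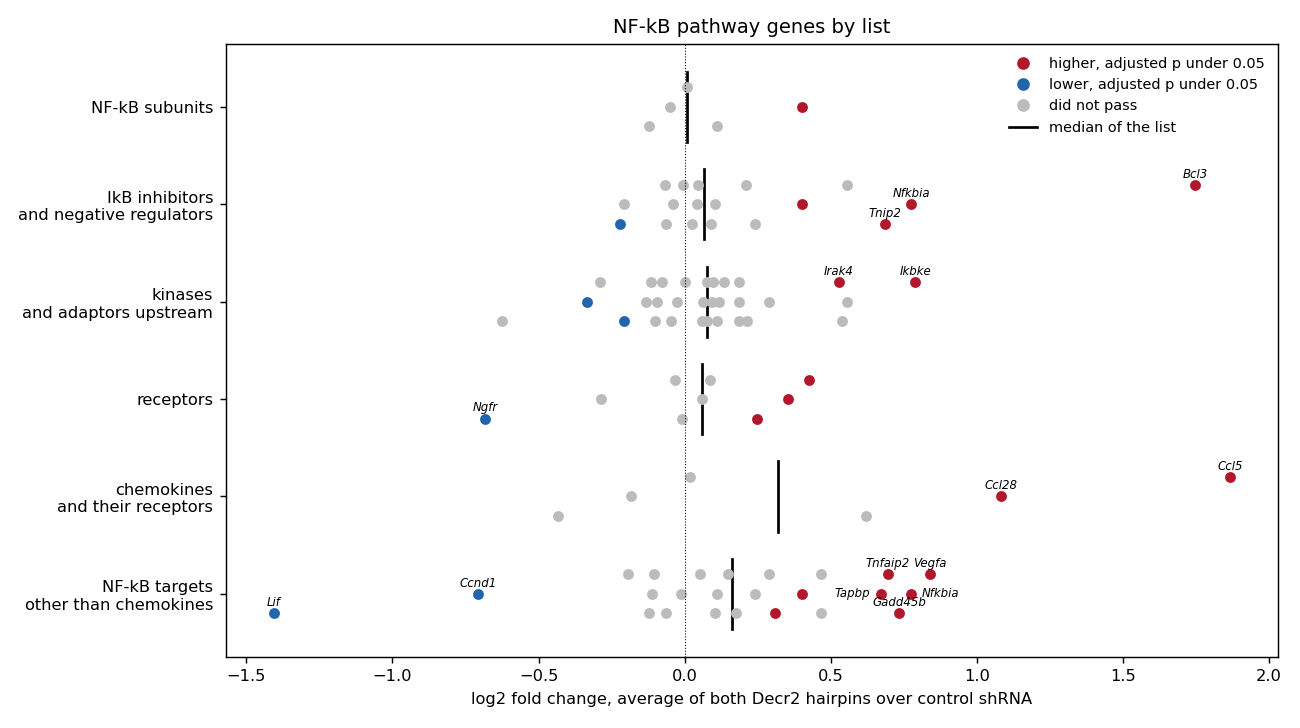
Log2 fold change in the average of both Decr2 hairpins over control shRNA (horizontal axis) for the 87 measured genes of 6 NF-kB pathway lists, red where called higher, blue where called lower and grey where not passed, with a bar at the median of each list. Bcl3 (1.75) and Ccl5 (1.87) lie farthest to the right and Lif (-1.41) farthest to the left; Relb and Nfkbia appear in both of the lists that hold them.

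The genes whose pattern over the 9 libraries was most like that of a called member were found by the root mean square difference after each gene was centred and scaled to its own SD. For Nfkbia they were Nrbp2 (0.121 SD), Rfng (0.142 SD) and Sv2a (0.150 SD). For Ccl5 they were Tmem176a (0.141 SD), Cyp2j9 (0.152 SD) and Padi2 (0.152 SD). For Relb they were Acadl (0.235 SD), Trappc12 (0.236 SD) and Gstm6 (0.238 SD). None of these 9 genes is on the NF-kB lists, and a likeness over 9 libraries also holds what those libraries share in group and number.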

How the data were processed

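Messenger RNA was sequenced from 9 libraries of cultured B16.SIY cells, 3 each with Decr2 shRNA1, Decr2 shRNA2 and a control shRNA; sample titles gave the groups and library numbers (0, 1 and 2). Tumors are named in the series title, but the labels describe a cell line. The authors deposited 1 log2 value per gene and library, and per the file headers also their own log2 fold changes, t scores and p-values, which were used only to link columns to hairpins. Per the submitters' processing notes, the tools were kallisto, FastQC and limma; versions, build, strand setting and filter are not given in the sources. Raised to the power of 2, the deposited values summed to between 969465 and 1045849 per library, but the unit and any scaling by transcript length are not stated, so depth is unknown and precision rests on the spread between libraries.

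Column codes name the control but not which Decr2 hairpin. The authors' comparison headed shRNA1 lay within 0.05 of the columns taken as shRNA1 in 99.95% of genes, and that headed shRNA2 in 99.7% of those taken as shRNA2. If those headings were exchanged, the hairpin names would be exchanged here too.

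limma 3.58.1 in R 4.3.3 was fitted to all 10762 genes of all 9 libraries, with a mean per group and an intensity trend (3.3 prior and 6 residual degrees of freedom), no filter and no pseudocount. Benjamini-Hochberg adjustment ran over the whole table, and calls were made at 0.05 with no fold minimum. The fit was tested on simulated data. Same-numbered libraries of different groups deviated together in all 9 pairs (correlations of deviations across genes 0.126 to 0.644). The 18 pairs of different numbers ran from -0.629 to 0.531. Libraries numbered 0 deviated apart from those numbered 1 and 2. Numbers 1 and 2 were not clearly told apart: shRNA1 library 1 correlated at 0.531 with shRNA2 library 2 and at 0.126 with shRNA2 library 1. A pairing by number thus comes from the data for the libraries numbered 0 only, and not from the labels. The main fit used no pairing, and the fits with a library left out had no block. Alternatives were the library number as a block, each library left out, only the groups compared (for the average, both hairpins as 1 group), the lowest 25% of genes removed, libraries centred on their medians, a pseudocount of 1 and no trend; leaving out the libraries numbered 0 was chosen after seeing the data.

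The members, lists and alternatives were chosen with earlier results of these data known. From each list the text names all members and up to 6 called genes with the smallest p in the average of both hairpins, or, with none called, values only. For likeness it names the 3 nearest genes of the 3 members with the smallest p. A reference table gave symbols for 10759 identifiers and left 3 with the deposited name. Coordinates are from GENCODE M21 on GRCm38 and promoters from RefSeq on GRCm38.p6, either of which may differ from the authors' build.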

Additional observations from a re-analysis of the deposited data

How the results depend on the processing

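The 8 called values of members (each of Ccl5 and Nfkbia with shRNA1, with shRNA2 and in the average; Relb with shRNA2 and in the average) were recomputed in 120 alternatives: 97 kept direction and call, 23 lost the call and 0 changed sign. The library number as a block changed no call of a member. Without it 1336 genes were called with shRNA1, 1392 with shRNA2, 1892 in the average and 49 between hairpins; with the replicate block these counts were 2646, 2583, 3263 and 201, and without the 3 libraries numbered 0 they were 3711, 4011, 4452 and 955. With only the groups compared, 675 genes (shRNA1) and 6 (between hairpins) were called, and 1 member with shRNA1. With the lowest 25% of genes removed, 0 of 4 tested members were called in any comparison with control. In the average, the lists then held 0 of 3 tested subunits, 2 of 11 inhibitors and 2 of 21 kinases. They also held 4 of 7 receptors and 4 of 17 targets, and 12 of 57 genes in all. Without the filter these were 1 of 5, 5 of 18, 4 of 30, 4 of 9, 9 of 24 and 23 of 87. No chemokine or chemokine receptor was left to test, where 6 had been measured. The removed genes were not tested, and 1399 of 8071 genes were called in the average. In the average, 8 of 30 kinases were called with the block, in a fit that called 30.3% of all genes. Without the libraries numbered 0, 11 of 30 kinases and 39 of 87 list genes were called, in a fit that called 41.4% of all genes. Receptors numbered 2, against 4, with the hairpins fitted as 1 group. Leaving out each library in turn gave 1 to 2 members with shRNA1, 1 to 3 with shRNA2 and 1 to 3 in the average; 328 to 1579, 406 to 2450 and 616 to 2642 genes in the same order, and 3 to 94 between hairpins; and, of the lists, 0 to 1 subunits, 2 to 5 inhibitors, 1 to 7 kinases, 1 to 5 receptors, 0 to 2 chemokines, 5 to 9 targets and 8 to 27 genes in all. The cause of these shifts was not tested.

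Signs changed only for values that were not called. Leaving out single libraries, the log2 fold change of Nfkb1 with shRNA1 ran from -0.125 to 0.10, Nfkb2 with shRNA2 from -0.00181 to 0.146 and between hairpins from -0.139 to 0.017, Rela with shRNA2 from -0.084 to 0.013, Nfkbia between hairpins from -0.031 to 0.079, Nfkbib with shRNA1 from -0.105 to 0.090, with shRNA2 from -0.179 to 0.016 and in the average from -0.142 to 0.053, Ccl5 between hairpins from -0.362 to 0.185, and Rel in the average from -0.061 to 0.080. Without the libraries numbered 0, Nfkb1 with shRNA1 was 0.0876, Nfkb2 with shRNA2 -0.00478 and Rel in the average -0.014; with libraries centred, Rel was -0.00545. Among the named list genes, Irak4, Ngfr, Tlr4 and Lif lost their call with the hairpins fitted as 1 group (adjusted p = 0.0595, 0.123, 0.0520 and 0.0533, limma), and Tlr4 with libraries centred (0.0514) and without the trend (0.0566). Low values such as those of Ccl5 carry a depth that is unknown.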
